A study of Mus musculus with 6 samples.

Results

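Messenger RNA levels of 10 tubulin genes were compared between mouse glioblastoma (GBM) neurosphere cultures of 2 genotypes, ATRX knockout (ATRX KO, line code C54B, 3 libraries) and ATRX wild type (ATRX WT, line code C39E, 3 libraries). The genes were Tuba1a, Tuba1b and Tuba1c of the alpha family and Tubb2a, Tubb2b, Tubb3, Tubb4a, Tubb4b, Tubb5 and Tubb6 of the beta family. They were listed by name as neural and broadly expressed isotypes, and all 10 were rows of the deposited table of 13069 genes. All 10 also passed the filter on low values that left 12201 genes to be tested. Per the labels, tumours of both lines began in neonatal mice, C57BL/6 or FVB, whose ventricles received Sleeping Beauty transposon plasmids carrying a hairpin against p53 (shp53) and NRAS, with or without a hairpin against ATRX (shATRX). The labels thus give both a knockout and a hairpin for the same libraries, and they do not say which strain each line came from. The spheres were kept in a medium for neural stem cells to which B-27, N-2, EGF and FGF were added. Each genotype was represented by 1 line, so line and genotype cannot be told apart. The p-values therefore rest on the variation among libraries of 1 line, part of which may be technical. ATRX is a chromatin remodeller, and the series title places the comparison in a study of how its loss alters cell cycle phase transition in glioma. Atrx itself, as the check of the labels, had 14.1, 16.6 and 17.1 RPKM in ATRX KO, against 22.3, 22.7 and 21.6 in ATRX WT (log2 difference -0.48, SE 0.068, limma adjusted p = 1.35e-04). The ATRX KO mean was 71.95% of the ATRX WT mean. The difference lay between the lower and upper quartiles of all tested genes (-0.72 and 0.64), so the Atrx level does not by itself verify the label. RPKM is a read count divided by gene length and library size, so it can be compared between genes where reads can be assigned to 1 gene. Below, KO and WT stand for ATRX KO and ATRX WT. Reads per library numbered 22177228 to 32477269 for ATRX KO and 34966108 to 38039847 for ATRX WT.

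Alpha and beta tubulin pair as a dimer, and dimers add end to end into microtubules, the hollow filaments that form the mitotic spindle, the cores of cilia and the tracks of axons and cell processes. Mammals carry several genes for each family. Their proteins are nearly alike in the folded body and differ most in the acidic tail at the end, where glutamate chains are added and where motors and severing enzymes bind. Tuba1a, Tubb2a, Tubb2b, Tubb3 and Tubb4a are known mainly from the nervous system, whereas Tuba1b, Tuba1c, Tubb4b, Tubb5 and Tubb6 are found in many tissues.

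The copies are alike in sequence, and this limits how well short reads can be assigned to them. In GENCODE M21 on GRCm38, Tuba1b, Tuba1a and Tuba1c lie in that order on chromosome 15, and Tubb2a and Tubb2b lie next to each other on chromosome 13. Tuba1a (ENSMUSG00000072235.6) occupies chr15:98949837-98953703 on the minus strand, Tuba1b (ENSMUSG00000023004.8) chr15:98931425-98934565 on the minus strand, and Tuba1c (ENSMUSG00000043091.9) chr15:99029891-99038110 on the plus strand. A gap of 15.3 kb separates Tuba1b from Tuba1a and one of 76.2 kb separates Tuba1a from Tuba1c. Tubb2a (ENSMUSG00000058672.7) occupies chr13:34074274-34078007 and Tubb2b (ENSMUSG00000045136.6) chr13:34126748-34130466, both on the minus strand and 48.7 kb apart. Coding bases were 98.3% identical between Tuba1a and Tuba1b, 97.1% between Tuba1a and Tuba1c, 97.9% between Tuba1b and Tuba1c and 96.5% between Tubb2a and Tubb2b. The other pairs of beta members were 80.2% (Tubb5 and Tubb6) to 85.7% (Tubb3 and Tubb6) identical.

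The last 60 coding bases, which encode the variable tail and end with the stop codon, show how close Tubb2a and Tubb2b are. They are printed on the coding strand from the GENCODE transcripts, with the position of the 60 bases. In Tubb2b, capitals mark bases that differ from Tubb2a. Both were set against each other from the stop codon back, without gaps.
Tubb2a, chr13:34074468-34074527, minus strand: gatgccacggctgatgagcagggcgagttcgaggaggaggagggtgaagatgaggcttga
Tubb2b, chr13:34127471-34127530, minus strand: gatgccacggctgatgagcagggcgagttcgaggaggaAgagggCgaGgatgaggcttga
Tubb2b differed from Tubb2a at 3 of these 60 bases, and read in frame these differences do not change the encoded amino acids. The tails of Tubb3, the isotype used as a marker of neurons, and of Tubb5, the broadly expressed isotype, are shown for contrast, with the stop codon in capitals.
Tubb3, chr8:123421623-123421682, plus strand: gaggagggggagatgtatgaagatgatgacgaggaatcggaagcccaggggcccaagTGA
Tubb5, chr17:35834982-35835041, minus strand: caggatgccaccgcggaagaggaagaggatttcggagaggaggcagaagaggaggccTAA
The libraries were read as pairs of 42 nt. Of all stretches of 42 bases in the transcript, 74.4% of those of Tuba1a and of Tuba1b and 62.3% of those of Tuba1c also occurred in another gene. The same share was 51.6% for Tubb2a, 41.8% for Tubb2b and 56.6% for Tubb4b, whose shared stretches lay mostly in the pseudogene Tubb4b-ps1. It was 0.524% to 1.42% for Tubb3, Tubb4a, Tubb5 and Tubb6. Levels of the 6 genes with large shared stretches are therefore uncertain as single genes, while those of the other 4 are little affected in this way. The shares count single stretches, so they can overstate the uncertainty of a pair, of which 1 read may occur in 1 gene only. How the authors counted reads that match more than 1 gene is not given in the sources used here.

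The isotypes fell into a different order of abundance in each genotype. Of the 10 genes, 9 were lower in KO and 1, Tubb6, was higher, each past an adjusted p of 0.05 in limma. Tubb4a, one of the 9, passed the filter only through WT. Of all tested genes, 45.9% were lower and 43.6% were higher by the same test. A call in either direction was the rule in these libraries (89.5% of tested genes), as was a complete separation of the groups (90.5%), so that the 10 of 10 called and the 10 of 10 without overlap say little by themselves. The median log2 difference, KO minus WT, was -1.51 over the 10 genes and -0.02 over all tested genes, whose lower and upper quartiles were -0.72 and 0.64. In bulk RNA, fewer cells of a type and less RNA per cell cannot be told apart. In WT the order by mean RPKM was Tubb5, Tuba1a, Tubb2b, Tubb4b, Tubb6, Tubb2a, Tuba1c, Tuba1b, Tubb3 and Tubb4a, and among neighbours in this order the ranges overlapped only for Tuba1c and Tuba1b. In KO it was Tubb5, Tubb6, Tubb4b, Tuba1a, Tuba1b, Tuba1c, Tubb2b, Tubb2a, Tubb3 and Tubb4a, with no overlap between neighbours. Tubb5 ranked 14th by level among all tested genes in WT and 95th in KO. Tuba1a ranked 28th and 1134th. These orders and ranks use the levels as counted, which are uncertain as single genes for members with large shared stretches.

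**Figure D1:**
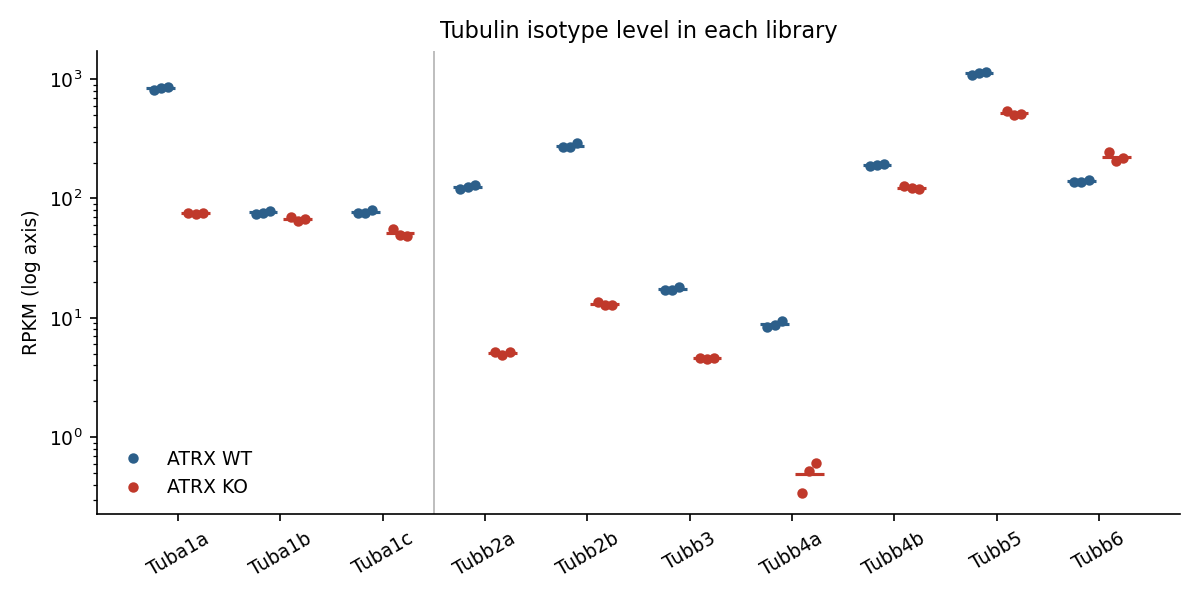
Level of each of the 10 tubulin genes in RPKM (log axis) in the 3 KO and 3 WT libraries, 1 point a library, with the group mean as a line. Tubb5 was highest in both genotypes, at 504 to 544 RPKM in KO and 1091 to 1151 in WT, and Tubb6 was the one gene whose KO points lay above its WT points.

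Among the alpha genes the difference lay mostly in Tuba1a, the main alpha isotype of the developing brain. Tuba1a had 76.0, 74.3 and 75.8 RPKM in KO and 817, 836 and 860 in WT. Every KO library was below every WT library, and the KO mean was 9.0% of the WT mean (75.4 ± 0.907 against 838 ± 21.5 RPKM, mean ± SD, n = 3 libraries each). The log2 difference was -3.47 (SE 0.029, limma adjusted p = 3.99e-12), from 9252 reads in KO and 157017 in WT. Tuba1b, an alpha isotype of most dividing cells, had 70.5, 64.7 and 66.8 RPKM in KO and 74.3, 76.2 and 78.4 in WT. The groups were close but did not overlap, and the difference of -0.18 (SE 0.037, limma adjusted p = 0.00144) left the KO mean at 88.3% of that in WT. Tested against a log2 change of 0.5 instead of 0, Tuba1b did not pass (limma adjusted p = 1). With library sizes taken as the reads in the table its difference was -0.38. Tuba1c, broadly expressed like Tuba1b, had 56.0, 49.9 and 48.4 RPKM in KO and 76.2, 75.2 and 80.0 in WT. The lowest WT library was above the highest KO library, with a log2 difference of -0.59 (SE 0.054, limma adjusted p = 6.26e-06). Against a log2 change of 0.5 it did not pass (limma adjusted p = 0.125). Because reads of these copies may be split between them, the recovered reads of Tuba1a, Tuba1b and Tuba1c were also added into 1 feature. Adding them does not restore reads that were dropped for matching more than 1 copy. The sum had 199.7, 185.9 and 187.5 RPKM in KO and 916, 934 and 964 in WT, and it was 4.91-fold lower in KO (log2 difference -2.30, SE 0.038, limma adjusted p = 9.11e-11).

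The 4 beta genes known from neurons and glia were all lower in KO, by 3.78-fold to 24.7-fold. Tubb2a, a beta isotype abundant in brain, had 5.12, 4.89 and 5.17 RPKM in KO and 121, 124 and 130 in WT. KO stood at 4.05% of WT, a log2 difference of -4.63 (SE 0.038, limma adjusted p = 3.87e-12). Tubb2b, its neighbour on chromosome 13, which is known for cortical malformations when mutated, had 13.5, 12.8 and 12.7 RPKM in KO and 268, 270 and 289 in WT. The KO libraries were again close to each other and far below WT, by -4.41 (SE 0.039, limma adjusted p = 4.64e-12). Tubb2b was the higher of the pair in all 6 libraries. With the counted reads of the copies added, Tubb2a and Tubb2b together were 22.1-fold lower in KO (log2 difference -4.47, SE 0.036, limma adjusted p = 3.76e-12). Here too, dropped reads are not restored.

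Tubb3 is the class III beta tubulin detected by the usual antibody stains for neurons. It had 4.62, 4.56 and 4.62 RPKM in KO and 17.0, 17.2 and 18.1 in WT, so that its level was low beside the other isotypes even where it was higher. The log2 difference was -1.92 (SE 0.042, 95% confidence interval -2.02 to -1.82, limma adjusted p = 4.72e-10), from 607 reads in KO and 3526 in WT. Tubb3 lies at chr8:123411424-123422015 on the plus strand. Tubb4a, the isotype of mature neurons and oligodendrocytes, was the scarcest member in both genotypes. It had 0.339, 0.525 and 0.612 RPKM in KO, from 21, 29 and 27 reads, and 8.35, 8.63 and 9.41 in WT, from 696, 778 and 829 reads. Its KO libraries were all below the level of the filter, which it passed only through WT, and they spread more than those of any other member (SD 0.442 on the log2 scale). The log2 difference was -4.20 (SE 0.193, limma adjusted p = 5.04e-08), and it was -2.72 on the log2(RPKM + 1) scale, which shrinks differences of low genes. Tubb4a lies at chr17:57080066-57087782 on the minus strand.

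The 3 broadly expressed beta genes did not move together. Tubb5, the main beta isotype of proliferating cells and of neural progenitors, had 544, 504 and 513 RPKM in KO and 1091, 1119 and 1151 in WT. It was 2.15-fold lower in KO, with no overlap between the groups (log2 difference -1.11, SE 0.041, limma adjusted p = 1.10e-08). Tubb5 lies at chr17:35833921-35838306 on the minus strand and had 106636 reads in KO and 349261 in WT, the most of any member. Tubb4b, which is found in most tissues and is also a tubulin of cilia, had 126, 124 and 120 RPKM in KO and 186, 190 and 194 in WT. KO reached 64.8% of WT (log2 difference -0.63, SE 0.030, limma adjusted p = 6.03e-08). Tubb4b lies at chr2:25222160-25224702 on the minus strand. Tubb6, a beta isotype that is low in brain, had 246, 206 and 217 RPKM in KO and 139, 136 and 144 in WT. All KO libraries were above all WT libraries, by 1.60-fold (log2 difference 0.67, SE 0.060, 95% confidence interval 0.53 to 0.81, limma adjusted p = 5.58e-06). Its size depended on the scaling, with 0.47 when library sizes were taken as the reads in the table and 0.38 after quantile normalization, and it stayed above 0 in each.

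**Figure D2:**
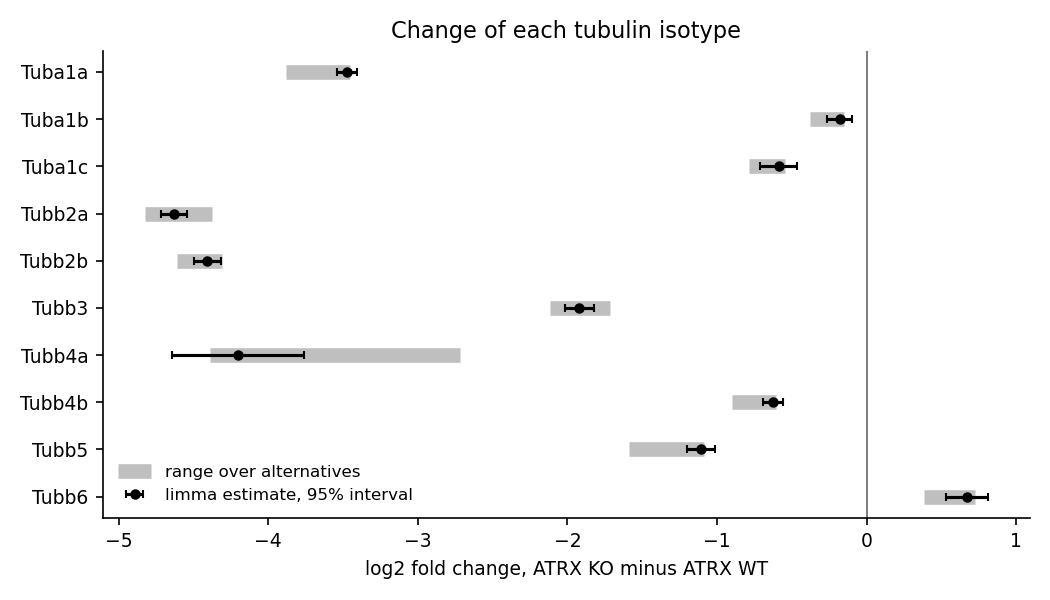
Log2 difference in level, KO minus WT, of the 10 tubulin genes (points) with its 95% confidence interval from limma (bars), over the range of the estimate under the other filters, scalings, pseudocounts and tests and with each library left out (grey). Tubb2a, Tubb2b, Tubb4a and Tuba1a lay at -4.63 to -3.47, Tubb6 at 0.67.

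Grouped as textbooks place them, the 5 neural isotypes had log2 differences of -4.63 to -1.92 and the 5 broadly expressed isotypes of -1.11 to 0.67, so the ranges of the groups did not overlap. These are descriptions of listed genes, with no test between the groups. The neural isotypes held 8.72%, 9.29% and 9.29% of the summed RPKM of the 10 genes in KO and 44.0%, 44.0% and 44.2% in WT.

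Within each family the makeup of the transcripts differed as well, and these shares do not depend on how the libraries were scaled. They can depend on how reads that match more than 1 gene were counted. The summed level of the 3 alpha genes was 202.4, 188.9 and 191.0 RPKM in KO and 968, 987 and 1018 in WT, a 5.11-fold difference. The sum of the 7 beta genes was 940, 856 and 874 RPKM in KO and 1830, 1866 and 1936 in WT, a 2.11-fold difference. The alpha sum was thus the smaller in every library, at 0.215, 0.221 and 0.219 of the beta sum in KO and 0.529, 0.529 and 0.526 in WT. Of the 42-base stretches of the alpha genes, 62.3% to 74.4% also occurred in another gene, against 1.42% for Tubb5, the highest beta gene. How reads that match more than 1 gene were counted is not known, so this ratio of the sums is uncertain. Tuba4a and other alpha genes are not part of the alpha sum.

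In WT, Tuba1a made up 84.5% ± 0.127 (SD, n = 3) of the alpha sum, Tuba1b 7.70% ± 0.0179 and Tuba1c 7.78% ± 0.144. In KO the 3 genes were much closer to each other, with Tuba1a at 38.9% ± 1.16, Tuba1b at 34.7% ± 0.379 and Tuba1c at 26.5% ± 1.17. Tuba1a remained the largest alpha share in every KO library, at 37.5%, 39.4% and 39.7%. Among the beta genes, Tubb5 held nearly the same share in both genotypes, 58.5% ± 0.518 in KO and 59.7% ± 0.262 in WT. What surrounded it differed. Tubb6 held 26.2%, 24.0% and 24.9% of the beta sum in KO and 7.57%, 7.31% and 7.44% in WT. Tubb2a and Tubb2b held 0.570% ± 0.0234 and 1.46% ± 0.0285 in KO and 6.67% ± 0.0466 and 14.7% ± 0.229 in WT. Tubb4b held 13.9% ± 0.520 in KO and 10.1% ± 0.0796 in WT, a higher share in KO although its level was lower there. The 4 neural beta genes together held 2.60% ± 0.0816 in KO and 22.7% ± 0.279 in WT.

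**Figure D3:**
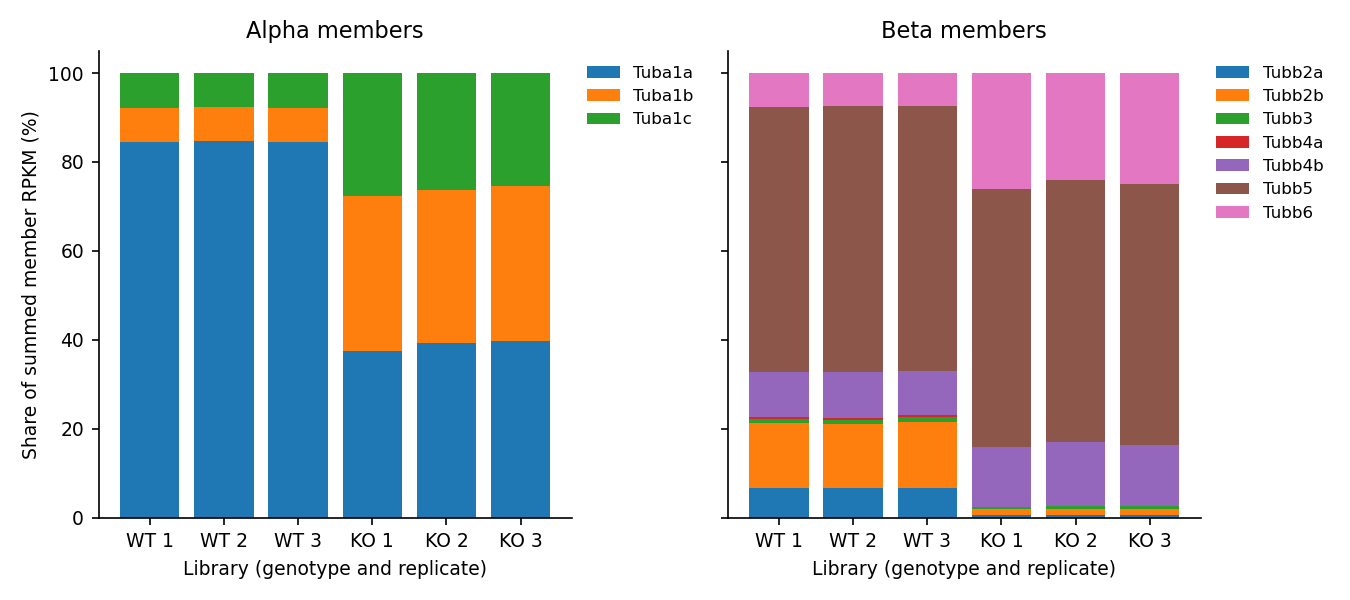
Share of each isotype in the summed RPKM of the 3 alpha genes and of the 7 beta genes, in percent, as stacked bars for each of the 6 libraries. Tuba1a fills 84.5% of the alpha bar on average in WT and 38.9% in KO, and Tubb6 fills 7.44% and 25.0% of the beta bar.

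The promoters were searched for sequence features that members with large and small differences might share. The RefSeq table (GRCm38.p6) held the promoters of 8 members, not those of Tubb2b and Tubb6. The 250 bases before the RefSeq start were searched on both strands for 4 motifs, and no match overlapped another. For Tuba1a, Tuba1b, Tubb3 and Tubb4a these bases reach into the gene as GENCODE places it. For Tubb5 they do so by a few bases only. The TATA box was searched as TATAAA and the CCAAT box by those letters. The GC box was searched as GGGCGG and an E-box, a site of basic helix-loop-helix factors, as CAGCTG. Other forms of the E-box were not searched and are not marked. The promoter of Tubb2a, a neural isotype with a low level in KO, and that of Tubb5, abundant in both genotypes, are printed on the gene's strand with the matches in capitals.
Tubb2a, chr13:34078009-34078258, minus strand: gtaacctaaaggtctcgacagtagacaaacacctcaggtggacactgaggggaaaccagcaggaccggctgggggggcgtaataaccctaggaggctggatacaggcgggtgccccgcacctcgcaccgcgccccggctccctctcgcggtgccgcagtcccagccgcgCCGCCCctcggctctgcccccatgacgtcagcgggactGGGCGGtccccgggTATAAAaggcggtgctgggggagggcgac
Tubb5, chr17:35838302-35838551, minus strand: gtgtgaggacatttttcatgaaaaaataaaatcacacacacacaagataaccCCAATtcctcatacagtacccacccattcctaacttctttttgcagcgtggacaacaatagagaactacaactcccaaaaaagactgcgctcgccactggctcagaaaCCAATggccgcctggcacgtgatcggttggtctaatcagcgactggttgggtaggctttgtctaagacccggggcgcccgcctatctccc
Tubb2a held 1 TATA box and 2 GC boxes, and Tubb5 held 2 CCAAT boxes and none of the others. The TATA box was found in 1 of the 8 promoters (Tubb2a) and in 12.4% of all 32851 promoters of the table, and the E-box in 1 of 8 (Tuba1b) and 13.0% of all. The CCAAT box was found in 5 of 8 (Tuba1a, Tuba1c, Tubb3, Tubb4b and Tubb5) and 33.8% of all, and the GC box in 5 of 8 (Tuba1a, Tuba1b, Tubb2a, Tubb3 and Tubb4b) and 32.7% of all. Both of these were found in promoters of neural and of broadly expressed isotypes. Tubb4a held none of the 4 motifs.

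Of the other tubulins, 5 of 10 listed were in the table, and 1 rose and 4 fell in KO, where 43.6% of all tested genes rose and 45.9% fell. Tuba4a, an alpha isotype whose gene does not encode the final tyrosine of most alpha tubulins, had 14.3, 13.7 and 13.5 RPKM in KO and 2.95, 2.74 and 2.72 in WT. It was the alpha gene that moved the other way from Tuba1a, with a log2 difference of 2.30 (SE 0.053, limma adjusted p = 6.37e-10). Tubg1, the gamma tubulin that seeds microtubules at centrosomes, had 43.3, 39.9 and 38.8 RPKM in KO and 73.5, 73.1 and 75.9 in WT, a log2 difference of -0.87. Tubd1 and Tube1, the delta and epsilon tubulins of centrioles, fell by 1.47 and 0.53 on the log2 scale. Tubg2, the scarce second gamma tubulin at 1.02 to 1.75 RPKM over all libraries, had a log2 difference of -0.47 (limma adjusted p = 0.00517) that turned to 0.18 after quantile normalization (limma adjusted p = 0.137).

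The genes that fold tubulin moved in both directions. Prefoldin and the CCT chaperonin take up new tubulin chains, and cofactors Tbca to Tbce join them into dimers. Of 23 listed, all tested, 14 rose and 7 fell in KO, with a median of 0.14, where 43.6% of all tested genes rose and 45.9% fell. This split depended on the scaling, with 9 higher and 13 lower after quantile normalization and 9 higher and 10 lower with library sizes taken as the reads in the table. The largest rises were in Cct8 (0.77), a chaperonin subunit, Pfdn2 (0.73), a prefoldin subunit, and Tbce (0.48). The largest falls were in Tbcb (-0.90) and Tbcd (-0.79), both cofactors, and Vbp1 (-0.20), another prefoldin subunit. All values are log2 differences.

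Of 18 tested genes for tubulin modification, 4 were higher and 12 lower in KO, with a median of -0.49, against 43.6% higher and 45.9% lower over all tested genes. The list holds enzymes of the tail, enzymes that set or remove acetyl groups inside the filament, and subunits that are not enzymes themselves. Over the 17 that reached a mean of 0 on the log2 RPKM scale in both genotypes, 4 were higher and 11 lower, with a median of -0.48. Vash1, a carboxypeptidase that removes the final tyrosine of alpha tubulin, had 0.101, 0.109 and 0.0567 RPKM in KO and 51.0, 53.0 and 53.3 in WT, from 39 reads and 38219 reads, a log2 difference of -9.26 (SE 0.217, limma adjusted p = 6.84e-10). Vash1 passed the filter only through WT, so it could only be lower. Its relative Vash2 was higher in KO instead, with a log2 difference of 0.75 (SE 0.037, limma adjusted p = 9.21e-08), at 14.9 RPKM against 8.88. Lrrc49 and Tpgs2, subunits of the complex that adds glutamate chains, fell by 2.61 and 2.42. Ttll3, a ligase that adds glycine, and Ttll12, another member of the ligase family, rose by 1.67 and 0.42. Of 21 tested genes of the gamma-tubulin ring and of microtubule nucleation, 2 were higher and 15 lower, with a median of -0.47. No test compared these lists with other genes. Haus4 (-1.44), a subunit of augmin, Mzt2 (-1.15) of the gamma-tubulin ring and Cdk5rap2 (-1.01) of the centrosome had the largest falls, and Haus6 (0.94) and Mzt1 (0.28) rose. Mzt1 did not pass with library sizes taken as the reads in the table (0.084, limma adjusted p = 0.0825).

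Of 18 tested genes for proteins that bind microtubules in neurons, 2 were higher and 16 lower in KO, with a median log2 difference of -4.61. Over all tested genes, 43.6% were higher and 45.9% lower. All 18 reached a mean of 0 on the log2 RPKM scale in WT and 10 did in KO, so 8 were tested only through WT and could only be lower. Over the 10 that reached it in both genotypes, 2 were higher and 8 lower, with a median of -2.39. Dcx, which stabilises microtubules in migrating neurons, had 0 reads in KO and 3871 in WT, at least 846-fold lower against 3 reads over the group. Dpysl5, a protein of growing axons, had 1 and 14887 reads, a ratio of 9756 with a 95% counting interval of 1751 to 385360. Stmn3, a neuronal stathmin that binds free dimers, had a log2 difference of -8.67 (SE 0.267). Dpysl3 rose by 0.60 (SE 0.039, limma adjusted p = 5.29e-07). Map1b, a large protein of axonal microtubules, had a difference of 0.18 that passed (limma adjusted p = 0.00873) but turned to -0.020 with library sizes taken as the reads in the table (limma adjusted p = 0.7). Of the general microtubule-associated proteins, 8 rose and 21 fell of 30 tested, with a median of -0.50, and the median of all tested genes was -0.02. Of the 30, 1 was tested only through KO and 1 only through WT, so their direction was fixed. Over the 28 that reached a mean of 0 on the log2 RPKM scale in both genotypes, 7 were higher and 20 lower, with a median of -0.50. Map7 (1.41), Tacc2 (0.85) and Clip1 (0.79) had the largest rises, and the severing enzyme Fign (-2.95), Map9 (-2.54) and Tacc1 (-2.46) the largest falls.

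**Figure D4:**
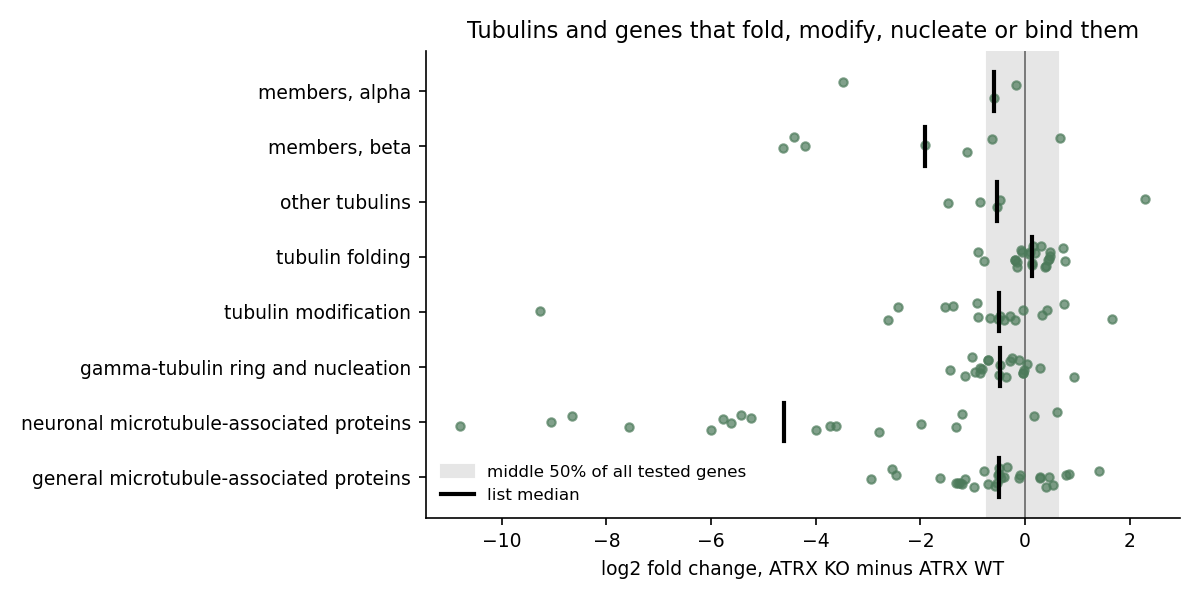
Log2 difference in level, KO minus WT, of each tested gene in the tubulin-related lists, 1 point a gene, with the median of each list as a bar and the middle 50% of all tested genes in grey. The alpha and beta rows hold the 10 isotypes. The neuronal microtubule-associated proteins have a median of -4.61, which includes 8 genes tested only through WT and is -2.39 without them, and the folding genes have a median of 0.14.

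Markers of cell types differed between the genotypes alongside the isotypes, and their part in the tubulin differences was not tested. Many of them passed the filter on low values only through the genotype in which they were high, so that their direction was fixed, and their levels are given as a description. Neuronal and neuroblast markers summed to 110.8 to 113.4 RPKM in KO and 252 to 259 in WT, and the sum hides markers that moved in opposite directions. Of 14 tested, 2 rose and 12 fell, and 8 of the 12 were tested only through WT. Over all tested genes, 43.6% rose and 45.9% fell. Both that rose were neurofilament genes, Nefl (38.9 RPKM in KO and 5.53 in WT, log2 difference 2.81) and Nefm (35.2 and 19.6 RPKM, log2 difference 0.84). Ncam1 and Sox11 fell by 1.30 and 1.34 on the log2 scale, and Dcx and Neurod1 had 0 reads in KO.

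Oligodendrocyte lineage markers summed to 43.4 to 46.9 RPKM in KO and 298 to 307 in WT. Of 6 tested, 2 were higher and 4 lower, and 3 of the 4 were tested only through WT. Over the 3 that reached a mean of 0 on the log2 RPKM scale in both genotypes, 2 were higher and 1 lower, with a median of 2.06. Of all tested genes, 43.6% were higher and 45.9% lower. Olig1 and Bcas1 had 0 reads in KO, against 34221 and 20140 in WT, whereas Pdgfra was higher in KO by 3.21 on the log2 scale. Cnp was lower in KO, with log2 differences of -3.37 to -2.67 over the alternative filters, scalings, pseudocounts and tests. Astrocyte and neural stem cell markers summed to 1080 to 1098 RPKM in KO and 5089 to 5214 in WT. All 7 tested were lower, 3 of them tested only through WT. Fabp7, a fatty acid carrier of radial glia, had 4 reads in KO and 247523 in WT, and Aldh1l1, an astrocyte enzyme, had 37 and 69357. Vim, an intermediate filament gene that mesenchymal cells also express, had 1008 of the summed RPKM in KO and 1868 in WT. Nes and Sox2 were lower in KO by -1.69 and -2.02, at 28.3 and 19.8 RPKM. The listed neural and glial markers thus did not move together. In KO, Olig1 and Fabp7 were at 0 or near it, and Nes and Sox2 were lower but present. Pdgfra and Cspg4 were higher, but like Vim they are also expressed by mesenchymal cells.

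Mesenchymal, fibroblast and pericyte markers summed to 1577 to 1729 RPKM in KO and 27.0 to 27.4 in WT. Of 9 tested, 7 passed the filter only through KO and 1 only through WT. Fn1, the 1 marker that reached a mean of 0 on the log2 RPKM scale in both genotypes, had 359.8 RPKM in KO and 5.14 in WT, a log2 difference of 6.13. Of 5 listed endothelial markers, 3 had values, namely Cdh5, Emcn and Kdr, and Pecam1 and Tek had none. The 3 summed to 14.5 to 16.5 RPKM in KO and 0.491 to 0.748 in WT. Cdh5 and Emcn were tested only through KO, and Kdr was not tested. Of 7 listed microglial markers, 1 had values, Tmem119, which other cells also express. Ptprc, Aif1, Cx3cr1, P2ry12, Csf1r and Itgam had none. Tmem119, tested only through KO, had 4.57 RPKM in KO and 0.0702 in WT. The 3 tested ependymal and ciliated markers, all tested only through WT, summed to 0.824 to 0.898 RPKM in KO and 9.11 to 9.74 in WT. Markers of cycling cells, all 12 of which reached a mean of 0 in both genotypes, summed to 762 to 785 RPKM in KO and 924 to 943 in WT. Of these, 2 were higher and 9 lower, with a median of -0.39, against 43.6% higher and 45.9% lower over all tested genes.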

How the data were processed

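RNA was sequenced from 3 ATRX KO and 3 ATRX WT libraries, made with a stranded kit from 4 ug of RNA and read as pairs of 42 nt, per the labels' protocols. Log2 RPKM values for 13069 genes were deposited by the authors as 1 table. The tools the authors used were edgeR 3.20.9, HTSeq 0.11.2, STAR 2.5.3a, Trim Galore and FastQC, per the submitters' processing notes. Both mm9 and mm10 are named there with no role, so coordinates and sequences come from GENCODE M21 (GRCm38) and RefSeq (GRCm38.p6), not from the authors' files. The deposited values carry a prior count that averaged 2.00 reads a library. Whole reads were recovered for 100% of genes within a tolerance of 0.0001 reads. Relative to the reads in the table, the authors' library sizes were 0.932 to 0.935 for ATRX KO and 1.07 for ATRX WT. Libraries of a genotype correlated across genes at 0.997 to 0.998 (Pearson).

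Genes reaching a log2 RPKM of 0 in at least 3 of 6 libraries were tested (12201, with 868 left out) with limma 3.58.1 in R 4.3.3, with empirical Bayes and a mean-variance trend, two-sided, at a threshold of 0.05 after Benjamini-Hochberg adjustment over the 12201 genes. RPKM is 2 to the power of the deposited value, and SD is over 3 libraries. Floors and counting intervals cover counting error only. Named were all 10 isotypes, every other tubulin in the table, and Atrx. For each related list, up to 3 largest rises and 3 largest falls were named. From each marker list, up to 3 tested markers were chosen by level, and not all of them are described. Markers with 0 reads, Nefl, Fabp7, Aldh1l1 and Sox2 were named after their values were seen. The members and lists were chosen with earlier results of these data known. The alternatives were other filters, scalings, pseudocounts, limma-voom, a test against a log2 change of 0.5, a replicate block, summed copies and leaving out each library. The fit and the recovery were tested on simulated data. The coding ends of the alpha genes are not reported here.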

Additional observations from a re-analysis of the deposited data

How the results depend on the processing

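The 10 isotypes kept their direction under every alternative that gave a value, with Tubb6 the one higher gene, and only Tuba1b and Tuba1c lost their call, against a log2 change of 0.5. The stricter filter (log2 RPKM of at least 1 in all 6 libraries) left out Tubb4a, so it has no value there. Scaling by the reads in the table moved the median of all tested genes by -0.20 and gave 4388 higher and 6689 lower calls, against 5321 and 5604. Under that scaling 9 folding genes were higher, 1 gene of the ring and nucleation list and 1 neuronal microtubule-associated gene, and Map1b turned to -0.020. Quantile normalization gave 9 higher and 13 lower folding genes, 1 higher neuronal microtubule-associated gene and a Tubg2 difference of 0.18. The test against a log2 change of 0.5 asks for larger changes and left 2 lower among the other tubulins, 2 higher and 2 lower folding genes, 2 higher modification genes, 1 higher and 9 lower nucleation genes, 1 higher neuronal and 3 higher and 13 lower general microtubule-associated genes. Tubg2, Tube1, Tbce, Vbp1, Ttll12, Mzt1, Map1b, Pcna, Mcm6 and Atrx also lost their call there. The stricter filter kept 4 lower neuronal microtubule-associated genes, since it tests fewer genes. For the scalings the cause was not tested. Without length correction, shares moved, with Tubb6 at 19.4% and 5.67% of the beta sum in ATRX KO and ATRX WT. Leaving out any 1 library changed no call of the isotypes. A replicate block gave 1 higher and 9 lower isotypes, as without it, and 5287 higher and 5564 lower genes in all. Deviations of same-numbered libraries correlated at -0.05, 0.05 and -0.04, so the numbers were not taken as a pairing, and not every library correlated best with its own number. Depth limits Tubb4a most, at 21 to 29 reads a library in ATRX KO.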
